A study of Mus with 4 samples.

Results

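Kinesins are motor proteins that walk along microtubules or dismantle them. In a sensory neuron of the dorsal root ganglion (DRG), whose axon can be very long, kinesin-1, kinesin-2 and kinesin-3 motors carry vesicles, mitochondria, neurofilaments and RNA outward from the cell body. Another set of kinesins builds the mitotic spindle, moves chromosomes and completes cytokinesis in dividing cells, and is usually low in cells that no longer divide.

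The kinesin motor genes described here are the genes whose symbol is Kif followed by a number and at most 1 letter from a to c, and which held at least 20 unique molecular identifiers (UMIs, each standing for 1 captured transcript) over all libraries. Of 31253 genes in the files, 38 symbols had this form and 36 reached 20 UMIs. Kif28, with 28 UMIs, lay just above the limit, and Kif12, with 2, and Kif2b, with 0, lay below it. At the other end Kif21a held 240819 UMIs and Kif5b 218494.

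The cells were dissociated from left lumbar L4-5 DRGs of wild-type male C57BL/6J mice of 6 to 8 weeks and profiled by droplet scRNA-seq, which counts the 3′ end of each transcript. There were 2 libraries of naive mice (CON) and 2 of mice taken 3 days after a chronic constriction injury (CCI), a model of neuropathic pain in which the sciatic nerve is loosely ligated. How many mice were pooled for each library is not stated, so p-values cover the spread from library to library, which may be technical. The controls were naive and not sham-operated, so the surgery itself cannot be told apart from the nerve constriction.

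The libraries held 52074235 to 135009606 UMIs, and 35113 cells passed the filter. Any 2 libraries shared 12 to 31 barcode sequences. CON replicate 2 stood apart, with 2613 cells against 10602 to 11155 in the others and the least neuronal RNA outside neurons. Cell types were named from marker genes: 3672 neurons, and satellite glia, Schwann cells, fibroblasts, pericytes, immune cells and endothelial cells, plus an erythrocyte-like cluster and a cluster of 25 proliferating cells that also carried satellite glial markers. Among the neurons, 3 clusters marked by Atf3, Sprr1a, Gal and other injury genes (the CCI-induced population of the study, called CIP-like here) held 5 and 1 CON cells and 328 and 181 CCI cells. As a check of the labels, Gal was at 213 and 226 CPM in CON neurons and at 2665 and 3350 in CCI neurons. CPM here are the UMIs of a gene divided by all UMIs of a cell type in a library and scaled to 1000000. All levels below are in this unit, and since each transcript is counted once at its 3′ end they need no scaling by gene length.

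The axonal cargo motors made up most of the kinesin transcripts of neurons. All kinesin genes together took 0.391% of the UMIs of neurons, against 0.193% in satellite glia, 0.227% in Schwann cells and 0.105% in fibroblasts. Of the 36 members, 14 had their highest mean level among the 7 cell types in neurons, and in 8 of these every library of neurons lay above every library of the next cell type. The heat map of mean levels shows these blocks. Shares over all genes were not set beside the counts of members by highest cell type, here or below. The counts therefore do not show whether kinesins differ in this from other genes.

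**Figure D1:**
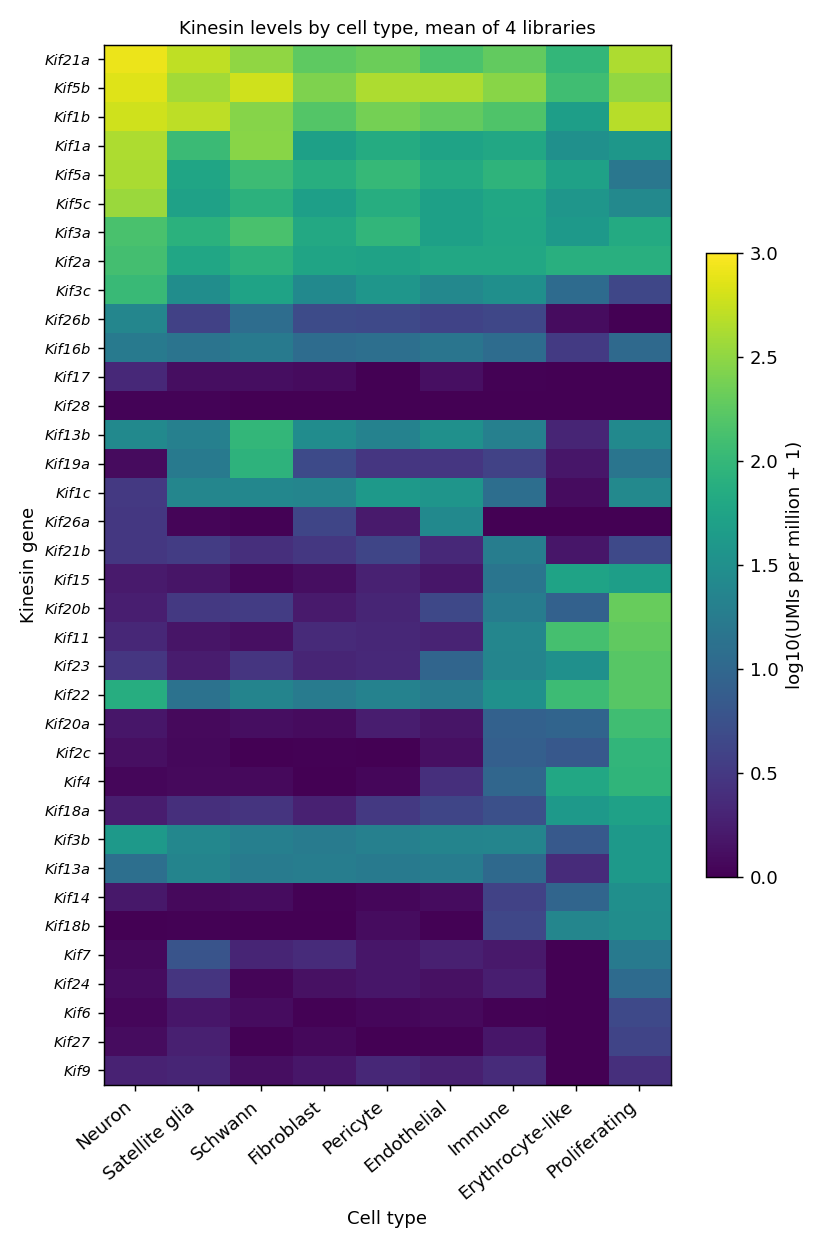
Mean level of each kinesin gene over the 4 libraries (rows) in each cell type (columns), coloured by log10(CPM + 1). Cargo motors such as Kif21a, Kif5b and Kif1b are bright in the neuron column and in glia, Kif19a and Kif13b in Schwann cells, and the mitotic kinesins in the proliferating and erythrocyte-like columns.

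Kif21a, a kinesin-4 motor that restrains microtubule growth near the cell cortex, was the highest in neurons, at 818 ± 173 CPM (mean ± SD, n = 4 libraries). Kif5b, the kinesin-1 heavy chain found in nearly all cells, followed at 711 ± 214, and Kif1b, a kinesin-3 motor of mitochondria and synaptic vesicle precursors, at 603 ± 114. These 3 neighbours did not differ beyond the spread between libraries. Kif1a, which carries synaptic vesicle precursors and dense-core vesicles, was at 432 ± 70.2, Kif5a, a neuronal kinesin-1 linked to neurofilament transport, at 416 ± 79.4, and Kif5c, the other neuronal kinesin-1, at 356 ± 30.1. A lower tier held the kinesin-2 motors Kif3a (138 ± 25.7), Kif3c (106 ± 11.7) and Kif3b (40.1 ± 6.52) and the microtubule depolymerase Kif2a (127 ± 11.2). Kif22 stood between them at 73.0 ± 63.7, a spread that is the difference between CON and CCI described below. Kif13b, a kinesin-3 motor, closed the 12 highest at 25.6 ± 3.78.

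Cargo motors differed in how far they were restricted to neurons. RNA freed from broken neurons enters every droplet, so the level of each motor outside neurons was set against 10 genes that define neurons or peptidergic neurons (Snap25, Tubb3, Uchl1, Stmn2, Prph, Nefl, Sncg, Elavl4, Tac1 and Calca). In satellite glia the median of these markers was 25.7% of the neuron level of the same library in CON replicate 1, 2.04% in CON replicate 2, 25.0% in CCI replicate 1 and 8.28% in CCI replicate 2. The markers were lowest outside neurons in CON replicate 2 in all 6 other cell types.

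Kif5a in satellite glia was at 21.98%, 1.11%, 19.5% and 8.53% of its neuron level in CON replicate 1, CON replicate 2, CCI replicate 1 and CCI replicate 2, and the marker median was higher in 3 of the 4. In CON replicate 2 this was 4.38 CPM against 396 in neurons. Kif5c was at 3.91% of its neuron level in satellite glia of CON replicate 2, 7.09% in Schwann cells and 3.12% in endothelial cells. For both genes no library of any of the 6 other cell types exceeded the highest of the 10 markers, so their levels outside neurons lay within the range of the neuron markers.

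Kif1b, Kif21a and Kif5b stood higher outside neurons. In satellite glia of CON replicate 2, where the highest marker reached 19.9%, Kif1b was at 107% of its neuron level (586 against 547 CPM), Kif21a at 61.4% and Kif5b at 51.7%. Kif1b exceeded every marker in satellite glia of all 4 libraries. Kif5b was at 99.9% of the neuron level in Schwann cells of CON replicate 2 and at 65.8% in endothelial cells. Kif1a was at 75.9% in Schwann cells of that library (281 against 370 CPM), at 24.9% in satellite glia, and at 4.47% in endothelial cells, where the marker median was 2.06% and the highest marker 4.65%. The plot of levels relative to neurons shows this order.

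**Figure D2:**
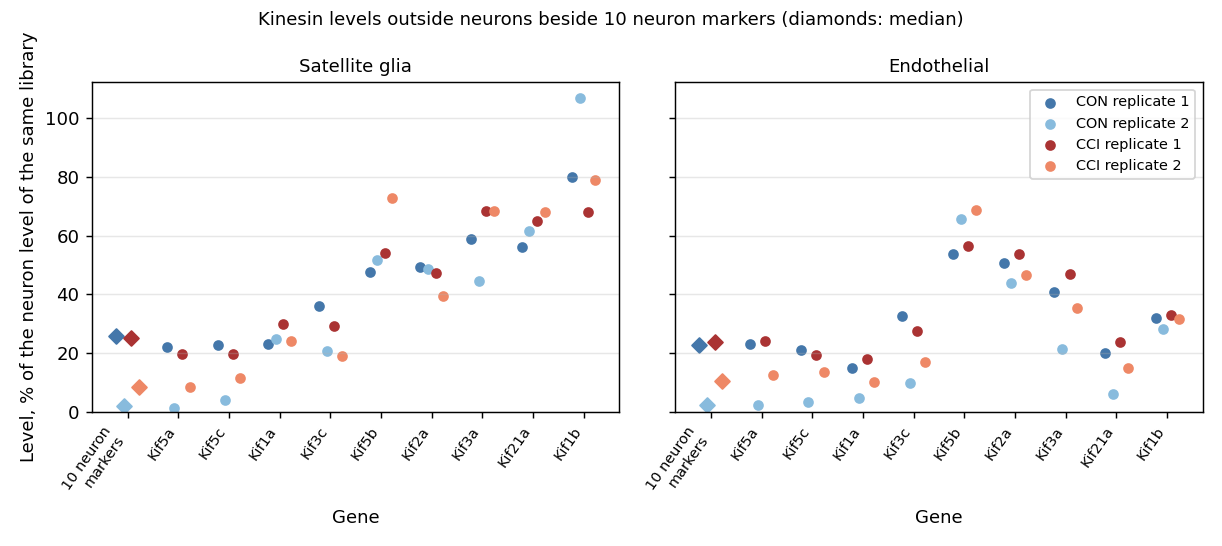
Level of 9 kinesin genes in satellite glia (left) and endothelial cells (right) as a percent of the neuron level of the same library, with 1 point per library. Diamonds give the median of 10 neuron markers. Kif5a and Kif5c follow the diamonds in each library, whereas Kif5b, Kif3a, Kif21a and Kif1b lie well above them in satellite glia.

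Schwann cells carried 2 members above all other cell types in every library. Kif13b, whose partner Dlg1 takes part in the control of myelin thickness, was at 127, 86.1, 95.1 and 80.5 CPM in the same order of libraries, and the next cell type, endothelial cells, averaged 30.8. Kif19a, a kinesin-8 that shortens microtubules and sets the length of motile cilia, was at 73.1, 88.2, 91.3 and 90.2 CPM in Schwann cells, 16.4 ± 6.38 in satellite glia and 0.234 ± 0.104 in neurons. Kif19a overlaps Btbd17 in the RefSeq annotation, and the strand of each is not in the table used here. Satellite glia also held Kif7, a Hedgehog regulator at the tip of the primary cilium, at 5.00 ± 1.32 CPM against 1.36 ± 0.921 in fibroblasts, the next cell type.

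Kif26a and Kif1c were highest in vascular cells. Kif26a, an atypical kinesin that dampens GDNF-Ret signalling, reached 28.3 and 30.5 CPM in CON endothelial cells and 25.7 and 18.6 in CCI endothelial cells, 7.89 times the mean of fibroblasts, the next cell type. Kif1c, which acts at podosomes, averaged 40.1 ± 10.3 in pericytes and 35.9 ± 12.4 in endothelial cells, and these did not differ beyond the spread. In endothelial cells Kif1c was at 42.0 and 50.4 CPM in CON and at 26.1 and 25.2 in CCI. The libraries did not overlap, but the difference did not pass the test (log2 fold change -0.70, SE 0.23, edgeR quasi-likelihood adjusted p = 0.986).

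Immune cells held 12 of the members at their highest mean among the 7 cell types, and 10 of these were mitotic kinesins. Kif21b, a kinesin-4 motor known from neurons and T cells, averaged 17.7 ± 6.03 CPM. Kif11, the kinesin-5 that pushes spindle poles apart, averaged 22.8 ± 8.13 in immune cells and Kif23, a subunit of centralspindlin needed for cytokinesis, 22.5 ± 12.2. The immune class joined a macrophage cluster and a neutrophil-led cluster, in which Kif11 averaged 37.2 ± 10.0. Both clusters also had all 8 proliferation markers above other cells. The neutrophil-led cluster had Ccl5, Igkc and Mcpt4 among its leading genes, so its levels need not be those of neutrophils.

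The proliferating cluster had the highest levels of these genes. Its 25 cells held Kif20b at 201 ± 126 CPM, Kif11 at 184 ± 126, Kif23 at 167 ± 121, Kif22 at 164 ± 60.3 and Kif20a, a cytokinesis motor, at 119 ± 120. With 3 to 11 cells per library these are rough levels: Kif11 rested on 3, 57, 10 and 10 UMIs. Like both immune clusters, the erythrocyte-like cluster had all 8 proliferation markers above other cells. It carried Kif11 at 128 ± 154 CPM and Kif15, a spindle kinesin, at 53.8 ± 65.0, with 2 cells in CON replicate 2. As a share of all UMIs of a gene in the kept cells, the proliferating cluster held 16.9% of Kif20a, 15.3% of Kif4 and 14.3% of Kif18b, against 0.107% of all UMIs. Kif18b had 0 UMIs in neurons in every library, and a count of 0 allows up to 3 UMIs in a library, counting error only.

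Cargo motors also varied among neuron subtypes, which were named from markers of non-peptidergic (NP1, NP2), peptidergic (PEP1), Nefh+ (NF2), low-threshold C-fibre (cLTMR1), Sst+ pruriceptor (SST) and Trpm8+ neurons. The kinesin genes were left out of the genes used for clustering, but subtypes and levels come from the same cells, so these contrasts are descriptions without a test. Kif5c varied most among the 6 highest motors. It was at 917, 1044, 877 and 822 CPM in cLTMR1 neurons and at 187, 149, 180 and 144 in NP1 neurons, 5.55 times less on average. Kif5b went the other way in part, with its highest mean in NP1 neurons (1135 ± 346 CPM) and its lowest in the Sstr2-led clusters (350 ± 69.8). SST neurons followed NP1 neurons closely, at 1082. Kif5a, the third kinesin-1, spanned a factor of 1.52, from 334 ± 73.5 in the Dcn/Itga1-led cluster to 506 ± 53.2 in cLTMR1 neurons, with NF2 neurons at 500.

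NF2 neurons, of the large myelinated type, had the highest means of Kif1b (1094 ± 403 CPM), Kif3c (171 ± 9.44) and the endosome motor Kif16b (32.0 ± 4.16). The next groups were close. The Htr3a/Smr2-led cluster averaged 964 for Kif1b and 155 for Kif3c, and cLTMR1 neurons 28.8 for Kif16b. Kif21b was at 13.5, 13.6, 11.6 and 13.7 CPM in NF2 neurons and at 0.168 ± 0.119 in NP1 neurons. Kif13b was lowest in NF2 neurons (7.31 ± 1.69) and highest in the Sstr2-led clusters (46.8 ± 5.31), followed by the Dcn/Itga1-led cluster (40.3). The atypical kinesins Kif26a and Kif26b also varied among subtypes. Kif26b was lowest in cLTMR1 neurons (3.26 ± 0.803) and reached 36.4 ± 14.5 in the Htr3a/Smr2-led cluster and 34.3 in Trpm8 neurons. Kif26a averaged 9.33 ± 4.93 in PEP1 neurons, 6.64 in the Htr3a/Smr2-led cluster and 0.0985 ± 0.0864 in NP1 neurons.

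The comparison of CCI with CON asks which motor genes change in the ganglion cells after nerve injury. In neurons 32 of the 36 members passed the filter on low counts (Kif4, Kif6, Kif18b and Kif28 did not), and 2 were called by edgeR's quasi-likelihood test at an adjusted p under 0.05: Kif22 was higher and Kif23 lower in CCI. Over all 15488 genes tested, 5.25% were called, 4.43% higher and 0.82% lower, so 1 member in each direction is a share near this background. The median log2 fold change of the 32 members was -0.14, against -0.02 over all genes tested. The libraries of the groups did not overlap for 15 of the 32, of which 12 were lower in CCI and 3 higher. Over all genes 48.8% did not overlap, 29.3% lower and 19.5% higher.

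**Figure D3:**
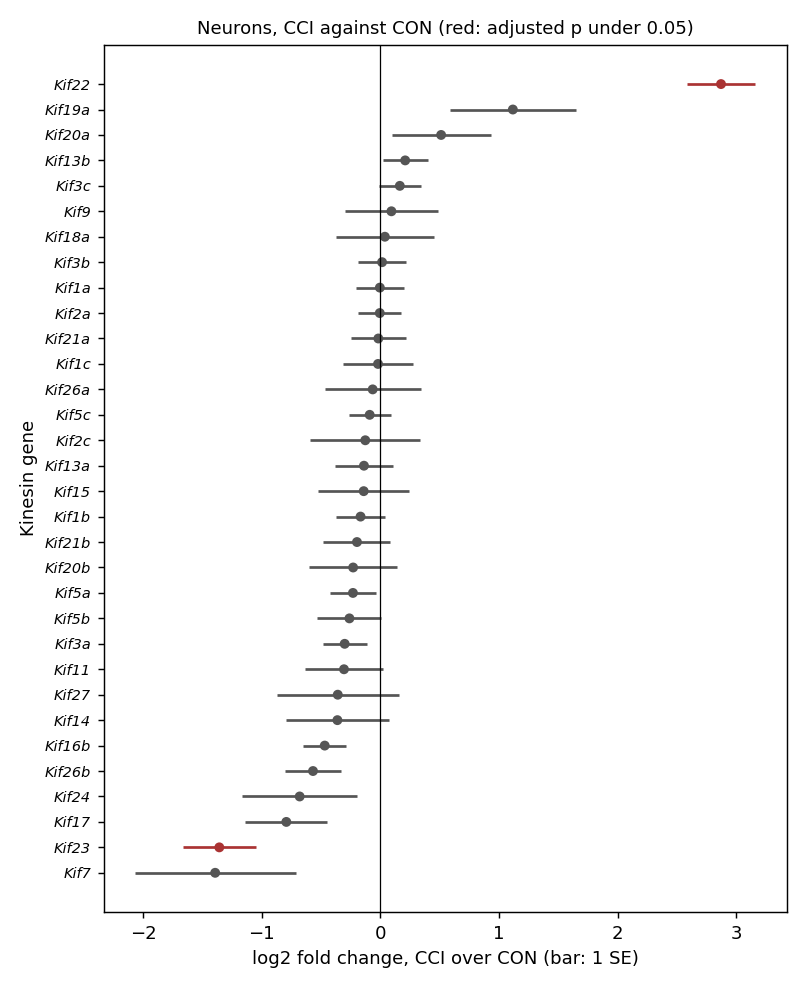
Log2 fold change of CCI over CON in neurons for the 32 kinesin genes tested, with bars of 1 SE; red marks an adjusted p under 0.05. Kif22 stands alone at 2.87 and Kif23 lies at -1.36, with Kif7, not called, at -1.39. The cargo motors with the highest levels, such as Kif21a and Kif1a, lie near 0, whereas Kif16b and Kif17 lie at -0.47 and -0.79.

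Kif22 (chromosome 7, 127027729 to 127042467, GRCm38) encodes a kinesin-10 that binds DNA and pushes chromosome arms during mitosis. Its neuron level was 12.98 and 23.7 CPM in CON neurons and 136 and 119 in CCI neurons, without overlap. The log2 fold change was 2.87 with an SE of 0.29 (adjusted p = 4.89e-04), a fold of 7.31. It was called in all 13 alternative settings, with a log2 fold change of 2.47 to 3.41. RefSeq places no other protein-coding gene over Kif22.

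Other proliferation genes were low in the same neurons. The 8 proliferation markers summed to 10.1 and 7.07 CPM in CON and to 15.4 and 16.3 in CCI. Of the 8, 4 were higher in both CCI libraries than in both CON libraries, as were 19.5% of all genes tested in neurons. These were Cdk1, Birc5, Cenpf and Ube2c, with CON means of 1.39, 3.78, 1.13 and 0.504 CPM. Their CCI means were 3.00, 5.17, 3.84 and 1.88, and the libraries of the groups overlapped for the remaining markers. Kif11 was at 1.38 and 1.31 CPM in CON neurons and at 1.10 and 0.966 in CCI neurons, and Kif20a at 0.513 and 0.354 in CON and 0.595 and 0.597 in CCI. Of the 11 members listed as mitotic 9 were tested, and only Kif22 and Kif23 were called. The median log2 fold change of the 9 was -0.14. The markers summed to 16.6 and 15.6 CPM in the CIP-like neurons of the CCI libraries and to 14.95 and 16.5 in the other neurons of the same libraries. Markers of other cells in neurons summed, for CON replicates and then CCI replicates, to 15.5, 14.3, 9.49 and 46.2 CPM over 11 immune genes and to 1795, 1323, 1421 and 1539 over 8 satellite glial genes. The part of these lists in the Kif22 level was not tested.

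Kif22 was highest in the CIP-like neurons. Within the CCI libraries they held 315 and 293 CPM, against 61.1 and 54.9 in the other neurons of the same libraries, a ratio of 5.15 and 5.33. The 3 CIP-like clusters ranged from 253 to 321 CPM per library. This contrast is a description, since the clusters were made from these cells. CIP-like neurons were 22.8% and 19.8% of the neurons of the CCI libraries and held 68.5% and 66.3% of their Kif22 UMIs. In CON replicate 2 the single CIP-like cell held 160 of the 669 Kif22 UMIs of all neurons.

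Kif22 also rose in the neurons outside these clusters, from 12.8 and 18.2 CPM in CON to 61.1 and 54.9 in CCI (log2 fold change 1.93, SE 0.22, edgeR adjusted p = 0.00277). It was the only 1 of 31 members tested there to pass, and 1.28% of all 15166 genes tested were called and 1.27% were called higher. In all 10 alternative settings the call held, with a log2 fold change of 1.58 to 2.24. To compare single cells at 1 depth, each was thinned to 5000 UMIs. A Kif22 UMI was then found in 6.56% (95% exact binomial interval 5.10 to 8.28) and 8.50% (5.34 to 12.7) of neurons outside the CIP-like clusters in CON, and in 22.3% (19.8 to 24.9) and 19.9% (16.9 to 23.2) in CCI. In CIP-like neurons of the CCI libraries the share was 75.3% (70.3 to 79.9) and 77.2% (70.4 to 83.1). These intervals cover the sampling of cells within 1 library and leave out the spread between libraries. In endothelial cells, taken as the background, the share was 3.22% and 4.74% in CON and 12.6% and 5.01% in CCI. Kif22 there lay above the median of the neuron markers in all 4 libraries, and whether this background is free RNA alone was not tested. On all counts, 34.4% and 49.3% of neurons outside the CIP-like clusters in CON and 63.6% and 55.3% in CCI held a UMI, at median depths of 38553, 92589, 49134 and 56409 UMIs, and 2.89%, 9.56%, 19.0% and 9.01% of endothelial cells at 3776 to 11044 UMIs. Cells under 5000 UMIs were left out, 43, 37, 40 and 74 of the neurons outside the CIP-like clusters and 520 of 831, 82 of 293, 382 of 867 and 260 of 699 endothelial cells, so the background share rests on the deeper endothelial cells.

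**Figure D4:**
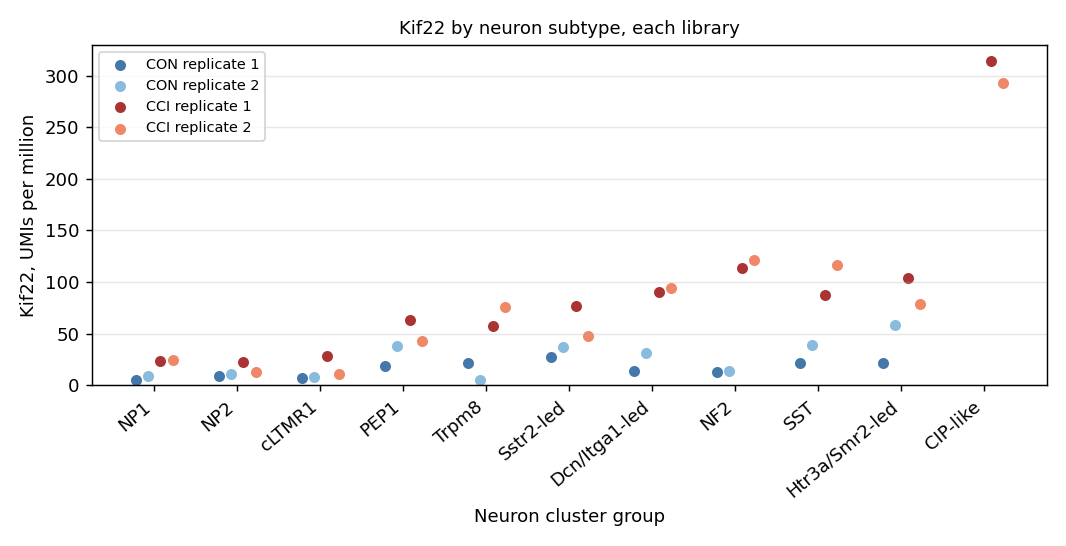
Kif22 level (CPM) in each neuron subtype, with 1 point per library; the CIP-like group is shown for the CCI libraries only, since CON libraries held 5 and 1 such cells. Both CCI points lie above both CON points in each subtype shown, and the CIP-like points at 315 and 293 stand above all others.

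All 12 neuron groups outside the CIP-like clusters, named and unnamed, had both CCI libraries above both CON libraries for Kif22. The change was tested in the 6 subtypes that held 20 or more cells per library. NF2 neurons went from 12.99 and 14.2 CPM in CON to 114 and 122 in CCI (log2 fold change 3.21, SE 0.31, edgeR adjusted p = 2.36e-07); 4.19% of all genes were called there, and Kif22 was the only 1 of 16 members. NP1 neurons went from 5.24 and 9.03 to 23.5 and 24.3 (1.82, SE 0.28, adjusted p = 0.0116), where 0.403% of genes were called. In Dcn/Itga1-led neurons the log2 fold change was 2.15 (SE 0.34) and just missed the threshold at an adjusted p of 0.0663. It was 1.35 (SE 0.37) in cLTMR1, 0.98 (SE 0.38) in PEP1 and 0.97 (SE 0.30) in Sstr2-led neurons, all with adjusted p of 0.730 or above. In these 4 subtypes 0.0761%, 0.0444%, 0.115% and 0.0449% of all genes were called.

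The fitted rise was larger in cells clustered as NF2 than in the other neurons outside the CIP-like clusters. The log2 fold changes differed by 1.44 (SE 0.29, edgeR interaction test, adjusted p = 0.00923), where 1.67% of all genes were called. Without CON replicate 2 the difference was not called (adjusted p = 0.178), although the log2 difference stayed within 1.28 to 1.64 over all 6 alternatives. The CIP-like neurons, at 315 and 293 CPM of Kif22, are left out of the group set against NF2. As a share of all neurons, CIP-like neurons went from 0.481% and 0.351% in CON to 22.8% and 19.8% in CCI, NP1 neurons from 21.1% and 26.3% to 13.6% and 13.05% and PEP1 neurons from 10.3% and 11.2% to 7.24% and 7.89%, whereas NF2 neurons were at 6.83% and 9.82% in CON and at 7.10% and 9.32% in CCI. The part of these shares in the difference was not tested. In the other direction the Kif22 effect was smaller in Sstr2-led neurons by 1.15 (SE 0.22), which did not pass (adjusted p = 0.0655, with 0.0998% of all genes called).

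In the 6 other cell types Kif22 had a lower mean level than in neurons, though not in every library. In satellite glia it was at 4.32 and 3.14 CPM in CON and at 31.9 and 10.3 in CCI, that is 33.3% and 13.3% of the neuron level in CON and 23.4% and 8.67% in CCI, beside a marker median of 25.7%, 2.04%, 25.0% and 8.28%. In CON replicate 2 it was at 35.0% of the neuron level in endothelial cells, above each of the 10 markers there. The CCI libraries were above the CON libraries in all 6 other cell types. None passed the test: no gene at all was called there (0.0% of 10244 to 13061 genes tested), with 195 to 509 genes at an unadjusted p under 0.05 and 8 to 27 called by DESeq2. Immune cells had the highest Kif22 level of these, 14.4 and 4.03 CPM in CON and 79.0 and 27.4 in CCI, and in CON replicate 1 this was 111% of the neuron level. The CCI effect on Kif22 was not shown to differ between neurons and satellite glia (difference 0.54, SE 0.68, edgeR adjusted p = 1.00), and in that interaction test 0.0% of 15233 genes were called, with 431 at an unadjusted p under 0.05.

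Kif23 (chromosome 9, 61917277 to 61946810) was the only member called lower. Its neuron level was 3.22 and 2.48 CPM in CON and 1.18 and 0.931 in CCI, and these did not overlap (log2 fold change -1.36, SE 0.31, edgeR adjusted p = 0.0345). The call was lost without CCI replicate 2 and when neuron clusters with markers of another cell type were left out, with an adjusted p of 0.193 and 0.334, at log2 fold changes of -1.23 and -1.24. The setting without such clusters kept 441 of 1039 and 151 of 285 CON neurons, and 502 of 1436 and 329 of 912 CCI neurons. It kept only NP1, NP2, PEP1 and NF2 neurons and the smallest CIP-like cluster. All other neuron groups, among them the cLTMR1 clusters and most CIP-like neurons, were left out. Over all 13 alternatives the log2 fold change was -1.50 to -1.19. Kif23 transcripts in neurons came largely from NP1 and cLTMR1 neurons, at 4.32 ± 1.94 and 5.39 ± 0.849 CPM, against 0.116 ± 0.232 in NF2 neurons. NP1 and cLTMR1 neurons held 57.5% and 31.4% of these UMIs. NP1 neurons made up 21.1% and 26.3% of the neurons in CON and 13.6% and 13.05% in CCI, whose part in the Kif23 result was not tested. Levels in NP1 neurons, for Kif23, stood at 6.39 and 4.73 CPM in CON and at 4.44 and 1.72 in CCI, and the difference was not called (log2 fold change -0.80, SE 0.40, edgeR adjusted p = 0.792). In cLTMR1 neurons the CON levels of 5.20 and 5.01 overlapped with the CCI levels of 4.71 and 6.62. CIP-like neurons of the CCI libraries had 0.120 and 0.195 CPM, 3 UMIs in each. Outside the CIP-like clusters Kif23 was at 3.23 and 2.50 CPM in CON and 1.63 and 1.20 in CCI, and was not called (log2 fold change -0.995, SE 0.31, adjusted p = 0.281).

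No cargo motor was called in neurons. All 14 of the axonal cargo members were tested, with a median log2 fold change of -0.15. The log2 fold changes of the 6 highest of them were small: Kif5a -0.23 (SE 0.20), Kif5b -0.26 (SE 0.27), Kif5c -0.09 (SE 0.18), Kif1a -0.0039 (SE 0.20), Kif1b -0.17 (SE 0.20) and Kif21a -0.02 (SE 0.23). For Kif5a this was 525 and 396 CPM in CON and 410 and 335 in CCI, which overlapped. Kif16b (-0.47, SE 0.18), Kif26b (-0.57, SE 0.23) and Kif17, a kinesin-2 motor of dendrites and cilia (-0.79, SE 0.35), were lower in both CCI libraries with unadjusted p of 0.0291, 0.0377 and 0.0466, and none passed the adjustment (0.211 to 0.271).

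**Figure D5:**
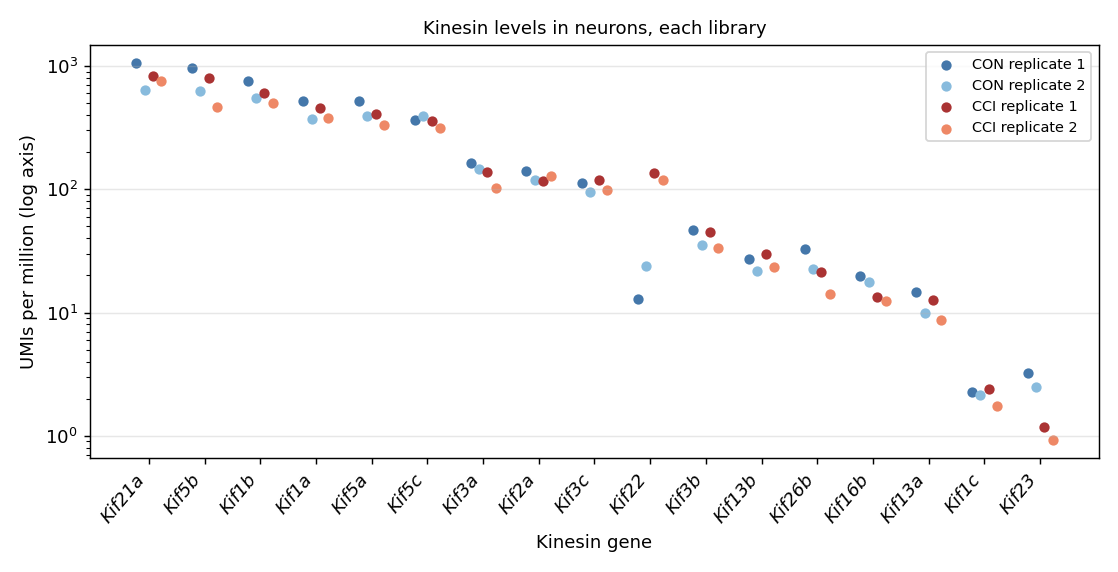
Level of the 16 highest kinesin genes and of Kif23 in neurons (CPM, log axis), with 1 point per library. The CON and CCI points of Kif22 stand further apart than those of any cargo motor from Kif21a to Kif3b. Kif5b also spreads between libraries, at 711 ± 214 CPM (mean ± SD).

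Levels in CIP-like and in other neurons of the same CCI libraries are given here without a test. Of 18 members with at least 200 UMIs in these cells, 5 were higher in the CIP-like neurons of both libraries and 9 lower. Over all 12300 genes with as many UMIs there, 28.9% were higher in both and 58.0% lower. The counts of members lie near these shares, so they do not set kinesins apart from other genes. Kif5a was at 313 and 254 CPM in CIP-like and at 451 and 365 in other neurons, and Kif5b at 611 and 315 against 875 and 519. Kif3a was at 0.672 and 0.725 of the level in other neurons. Kif26b was at 7.02 and 6.71 CPM against 27.2 and 16.9. Kif3c was higher, at 141 and 123 against 111 and 90.6, and so were Kif13b, Kif1c and, slightly, Kif5c. Kif14, a cytokinesis kinesin chosen after its values were seen, had 33 and 20 UMIs in CIP-like neurons (1.32 and 1.30 CPM) and 13 and 2 in the others (0.220 and 0.0481). Outside the CIP-like clusters Kif14 was itself lower in CCI than in CON, though not called (log2 fold change -2.13, SE 0.62, edgeR adjusted p = 0.229).

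None of 10 kinesin partners such as the light chains was called in neurons, with a median log2 fold change of -0.04, nor any of 24 cargo adaptors (-0.01) or 27 genes of dynein and dynactin (0.03), which drive transport back to the cell body. Of 20 track proteins, which bind or modify microtubules, 2 were called, both higher, where 4.43% of all genes were called higher. At an unadjusted p under 0.05 were 0 of the 10 partners, 5 of the 24 adaptors, 3 of the 27 dynein and dynactin genes and 5 of the 20 track proteins, and 17.8% of all genes. Map7d1, a microtubule protein that recruits kinesin-1, went from 83.3 and 80.0 CPM in CON to 156 and 167 in CCI (log2 fold change 1.06, SE 0.17, edgeR adjusted p = 0.00761). Vash2, an enzyme that removes the terminal tyrosine of alpha-tubulin, went from 2.52 and 1.80 to 7.45 and 5.62 (1.66, SE 0.26, adjusted p = 0.00614). Vash2 was not called when neuron clusters with markers of another cell type were left out, and Map7d1 not without CCI replicate 2.

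In the other cell types no member was called. Members with an unadjusted p under 0.05 in immune cells were Kif22, Kif2c, Kif4, Kif20a and Kif23, all higher in CCI. These are 5 of 23 members tested, and 3.85% of all 10583 genes tested had such a p. Kif23 there went from 11.2 and 13.1 CPM in CON to 35.6 and 30.1 in CCI (log2 fold change 1.39, SE 0.35, edgeR adjusted p = 1.00), and Kif2c, a microtubule depolymerase of the spindle, from 3.28 and 2.01 to 11.3 and 11.6. The clusters of immune cells were not tested separately. In the macrophage cluster Kif2c had 0 UMIs in either CON library, against 14 and 55 after CCI. In the neutrophil-led cluster Kif2c was at 6.85 and 5.22 CPM in CON and 6.83 and 5.59 in CCI. None of these differences passed the adjustment over all genes.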

How the data were processed

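The deposited files hold raw UMI counts per gene and cell barcode, which the authors made from 10x 3′ libraries with Cell Ranger 5.0.1, using the mm10 (GRCm38) genome and an Ensembl annotation. The processing notes of the submitters also list CASAVA 1.8 and Seurat. The labels and the study's methods differ on the enzymes used for dissociation.

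Cells with more than 500 genes and under 20% mitochondrial counts were kept, and 13 mitochondrial genes were removed. Cells were integrated with Seurat 5.3.0 (2000 features, 10 components, resolution 0.8), with 120 kinesin and transport genes left out of the features. No doublets were removed. Clusters were named from marker lists; exceptions to the naming, and the rule that set 8110 low-UMI barcodes with neuron markers aside, were made after the clusters were seen. Groups were taken from the labels. For each library and class the counts were added up, and the sums were tested with edgeR 4.0.16 (quasi-likelihood test, TMM, filterByExpr, Benjamini-Hochberg adjustment over all genes tested, threshold 0.05) in R 4.3.3. For differences between classes the interaction term was tested, blocking on library. DESeq2 1.42.0, upper-quartile factors, no filter, leaving out each library and other cell selections were alternatives. On simulated data for the neuron comparison, with 15488 genes, edgeR found 77% of the 2-fold and 100% of the 4-fold changes. For satellite glia, with 13061 genes, it found 0% and 16%. It also called 19 unchanged genes for neurons and 1 for satellite glia. The changed genes were drawn only from those above a set mean level, which Kif23 in neurons did not reach. The shares found therefore do not cover members that low.

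Named genes were every member past the threshold, the 12 highest in neurons, the 5 highest in each other cell type and examples of each family. The members and lists were chosen with earlier results of these data known. Gene positions and overlaps came from RefSeq GRCm38, which matched all 36 members. No sequences are given.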

Additional observations from a re-analysis of the deposited data

Results flagged for a closer look

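The fitted CCI effect on Kif22 was larger in NF2 neurons than in the other neurons outside the CIP-like clusters, and this difference was itself tested: the log2 fold changes differed by 1.44 (edgeR adjusted p = 0.00923). Without CON replicate 2 it was not called (adjusted p = 0.178). The CIP-like neurons, 22.8% and 19.8% of the neurons of the CCI libraries, are in neither group, and the part of this in the difference was not tested. Kif23 was lower in both CCI libraries in neurons and higher in both in immune cells, with a log2 fold change of 1.39 there, and in endothelial cells, with 0.44. These opposite directions between cell types were not tested as a difference. The low-UMI barcodes with neuron markers entered the neuron comparison only in the alternative setting that added them to the neurons. They held Kif22 at 7.72 and 10.3 CPM in the CON libraries and at 155 and 146 in the CCI libraries, a mean of 150.1 in CCI.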

How the results depend on the processing

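With 2 libraries in each group, single libraries decided several counts of called members. In neurons 2 members were called, and 1 (Kif22) without CCI replicate 2 or when clusters with markers of another cell type were left out; leaving out each library gave 1 to 3. Outside the CIP-like clusters 1 was called, 2 (with Kif14) with no filter, and 1 to 2 when each library was left out. With no filter, 1 member, Kif22, was called in Schwann cells, fibroblasts, pericytes, immune cells, cLTMR1 and Dcn/Itga1-led neurons, against 0. Leaving out each library gave 0 to 1 in Schwann cells (Kif5a, without CON replicate 1), 0 to 4 in endothelial cells (Kif1a, Kif21a, Kif5a and Kif5c, without CON replicate 1), and 0 to 1 in cLTMR1 (without CCI replicate 2), Dcn/Itga1-led (without any library but CON replicate 1), PEP1 (without CON replicate 2) and Sstr2-led neurons (Kif21a without CON replicate 1, Kif22 without CON replicate 2). DESeq2 called 1 member in Dcn/Itga1-led neurons. The replicate block called 1 member each in cLTMR1 and Dcn/Itga1-led neurons, 3 in neurons (Kif22, Kif23 and Kif26b) and 13 genes of the transport lists; deviations of same-numbered libraries correlated at 0.257 in neurons, and with 2 pairs this does not establish a pairing.

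The alternatives for the differences between subtypes and for the lists were chosen after seeing the data. The difference for NF2 neurons gave 0 to 1 called members when each library was left out, for PEP1 neurons 0 to 2 and 1 with no filter, and for Sstr2-led neurons 0 to 3, and 1 with upper-quartile factors or no filter. Of the transport lists 2 genes were called, 5 with DESeq2, 6 with no filter, 1 without clusters with markers of another cell type, and 1 to 5 when each library was left out. The cause was not tested. Leaving out clusters with markers of another cell type kept only NP1, NP2, PEP1 and NF2 neurons and the smallest CIP-like cluster. All other neuron groups, among them the cLTMR1 clusters and most CIP-like neurons, were removed. Over all genes in neurons, 813 were called, 1703 with no filter, 1561 without CON replicate 1, 1661 without CON replicate 2, 471 without CCI replicate 2, 2119 with the replicate block and 287 without clusters with markers of another cell type. Kif22 remained called in neurons under all 13 alternatives, and no called value changed sign.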
